A study of Drosophila melanogaster with 9 samples.

Results

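The genes described here are 47 genes of *Drosophila melanogaster* that carry no name beyond the CG number given when they were annotated, and whose RNA was low in sorted intestinal cells depleted of *Notch*. They were taken from the 17481 genes of the table in 3 steps. The symbol had to be CG followed by digits (5965 genes), the mean of the control libraries had to be at least 1 FPKM (2492 genes), and the highest *Notch-RNAi* value had to lie below 0.5 of the lowest control value (51 genes). FPKM counts the sequenced fragments of a gene relative to the length of its transcript and to the fragments mapped in the library. The genes were thus chosen by their values in the control and *Notch-RNAi* libraries. 4 of the 51 genes, *CG16826*, *CG34212*, *CG33109* and *CG43679*, were left out by definition.

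RNA had been sequenced from FACS-sorted Dl > GFP+ midgut cells in 3 groups of 3 libraries each. The driver line *Dl-Gal4, UAS-GFP* with a temperature-sensitive Gal80 was present in every group. Control cells, labelled wild type, expressed GFP alone, *gro-RNAi* cells an RNAi construct against *groucho* (*gro*), a co-repressor, and *Notch-RNAi* cells a construct against the receptor *Notch* (*N*). All were from adult intestines of flies aged 5 to 7 days by the labels. The study's methods give a younger age at the shift in temperature, followed by days of RNAi before dissection. The age at dissection therefore need not match the labels. By these methods, which cover control and *gro-RNAi* and do not describe *Notch-RNAi*, each library came from pooled midguts and the RNA was amplified before sequencing. The driver is active in intestinal stem cells (ISCs), RNAi was switched on in the adult by a shift in temperature, and GFP may persist in their daughters.

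In the midgut, the ligand Delta on an ISC activates Notch in the neighbouring daughter cell, the enteroblast, which leaves the cell cycle and becomes an absorptive enterocyte (EC). Cells with little Notch signaling remain ISCs or turn into secretory enteroendocrine cells (EEs). Activated Notch enters the nucleus, joins the DNA-binding protein Su(H) and switches on targets such as the *E(spl)-C* genes, many of whose products repress transcription together with Gro.

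The targets of the RNAi were examined first. *N* had 40.9, 36.9 and 28.5 FPKM in control libraries 1, 2 and 3, 32.2, 32.1 and 33.0 in *gro-RNAi* libraries 1, 2 and 3 and 13.9, 16.1 and 9.78 in *Notch-RNAi* libraries 1, 2 and 3, and *gro* had 19.9, 27.8 and 15.3, 3.69, 13.8 and 9.53 and 39.7, 47.3 and 33.1 in the same order. Each was lower in every library of its own RNAi than in every control library, and *gro-RNAi* library 2 kept the most *gro* of its group. The libraries held an estimated 7590000 to 18700000 reads, fewest in *gro-RNAi* library 2 and most in the *Notch-RNAi* libraries. The median log2 difference from control over the 11493 genes tested was 0.27 in *gro-RNAi* and 0.46 in *Notch-RNAi*. Of 27 genes listed for the Notch pathway and its targets 26 were tested, and 9 fell and 3 rose in *Notch-RNAi*, against 0 and 5 in *gro-RNAi* (limma, adjusted p under 0.05).

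Markers of other cell types moved as well. The 6 enteroblast markers summed to 1554 to 1700.3 FPKM in control, 2396 to 2614 in *gro-RNAi* and 297 to 459 in *Notch-RNAi*, where 4 of them fell. In control library 1 *E(spl)malpha-BFM*, *E(spl)mbeta-HLH* and *E(spl)m3-HLH* made up 844, 368 and 310 of 1666 FPKM. These fell with *klu*, whereas *Su(H)* and *Sox21a* did not, with log2 differences of 0.015 and 0.010 in *Notch-RNAi*. All are listed for the Notch pathway too. The paper describes these *E(spl)-C* genes as also expressed in ISCs and lower there after *Notch* depletion. The sum therefore does not measure enteroblasts alone. The 26 EC markers summed to 640.2 to 1068 FPKM in control, 815 to 2131 in *gro-RNAi* and 422 to 1684 in *Notch-RNAi*. Of the 24 tested, 1 fell and 1 rose in *Notch-RNAi*, and none was called in *gro-RNAi*. The EC membrane protein gene *mex1* was the one that fell, with 565, 286 and 397 FPKM in control, 588, 375 and 305 in *gro-RNAi* and 149, 146 and 217 in *Notch-RNAi*. The 12 EE markers summed to 1418 to 2871 FPKM in control, 2203 to 5437 in *gro-RNAi* and 3620.3 to 3984 in *Notch-RNAi*, with 3 lower and 5 higher there. Among those lower were the hormone genes *Tk* and *NPF*, at 4.82, 3.39 and 5.10 FPKM and at 4.63, 3.92 and 2.57 in *Notch-RNAi*, against at least 55.4 and 130.3 in control. Among those higher were *pros*, at 1.90, 1.25 and 1.85 FPKM in control and 7.85, 10.4 and 8.07 in *Notch-RNAi*, and *CCHa1*. The latter had 234, 187 and 269 FPKM in control and 1266, 1106 and 786 in *Notch-RNAi*. The EC marker *gammaTry* was listed at 0 in every library, and 8 visceral muscle markers summed to 4.51 FPKM or less in every library. The 3 copper cell markers summed to 18.7 to 24.8 FPKM in control, 14.5 to 21.3 in *gro-RNAi* and 11.98 to 12.5 in *Notch-RNAi*, and *Vha100-4*, a proton pump subunit gene, fell there from 1.77, 11.7 and 5.19 FPKM to 1.16, 1.03 and 1.56 (limma adjusted p = 0.0418). Markers of fat body, haemocytes and trachea summed to 4.43 FPKM or less each. Of 7 ISC and progenitor markers, 5 rose in *gro-RNAi* and the same number in *Notch-RNAi*. Among them *Dl* rose in both, from 6.56, 7.09 and 3.93 FPKM in control to 69.7, 30.8 and 25.6 in *gro-RNAi* and 38.8, 46.7 and 54.7 in *Notch-RNAi* (limma adjusted p = 0.00484 and 0.00105). Since 2806 of the 11493 tested genes rose in *Notch-RNAi* as deposited, the counts of markers that rose there are not read as results. The progenitor gene *esg* was not analysed here. The part of these cell types in the levels below was not tested, and in such bulk samples fewer cells of a type and less RNA per cell cannot be told apart.

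The control levels of the 47 genes ran from 1.10 to 534.5 FPKM, with a median of 11.7. 6 of them exceeded 100 FPKM, 19 lay between 10 and 100, and 22 between 1 and 10. In *Notch-RNAi* the mean was between 0% and 37.5% of the control mean (median 18.0%), which describes the choice of the genes and is no result. In the same way, 44 of the 47 were called lower in *Notch-RNAi*, against 4.29% of all tested genes and 6.62% of the CG genes with a control mean of at least 1 FPKM, and nothing is read from this. *CG31493*, *CG43051* and *CG13676* lay just inside the limit, with the highest *Notch-RNAi* value at 49.1%, 47.5% and 47.0% of the lowest control value, and *CG4678*, *CG13204* and *CG6709* just outside it at 50.4%, 50.8% and 51.1%. For the limit on the control mean, *CG12310*, *CG42591* and *CG8012* were the nearest inside at 1.10, 1.17 and 1.30 FPKM, and *CG9500*, *CG9676* and *CG14669* the nearest outside at 0.973, 0.957 and 0.911. The number of genes moves with the libraries and the scaling. Without control library 2 the rule takes 77 genes and without *Notch-RNAi* library 3 it takes 91, and on libraries centred on the same median it takes 122, among them all 47. Leaving out a library can only ease the limit against the lowest control value, so a rise with fewer libraries is no result.

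**Figure D1:**
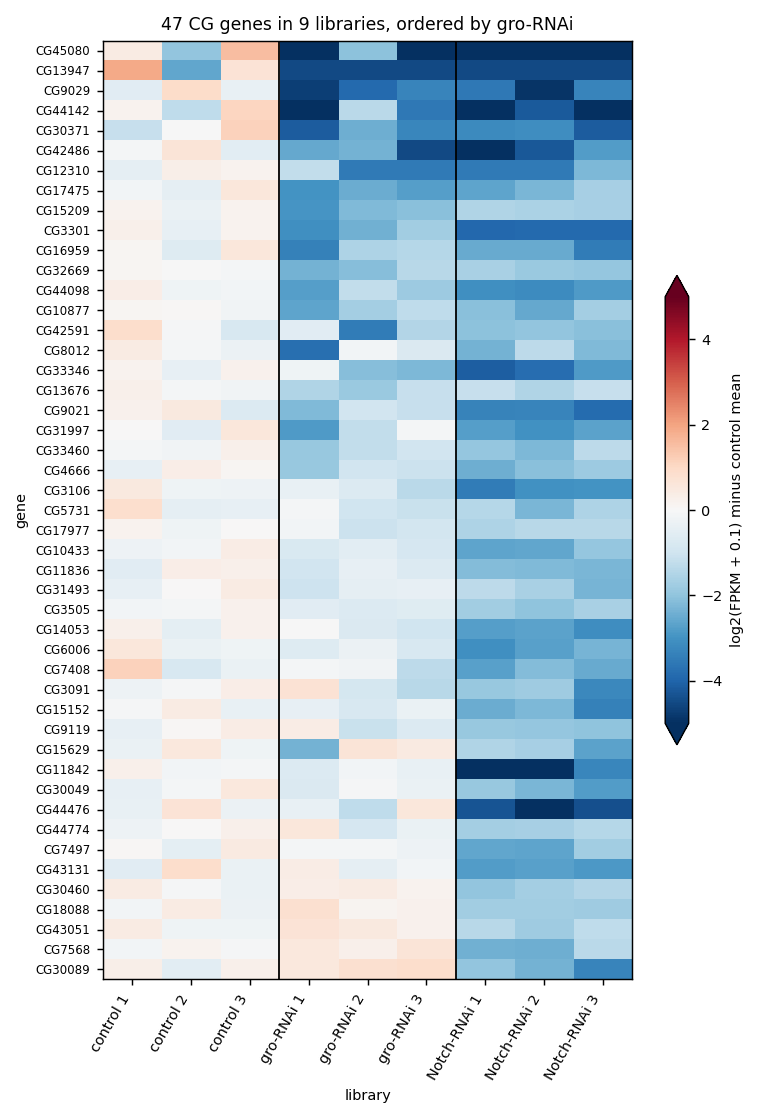
Level of each of the 47 genes (rows) in each of the 9 libraries (columns), as log2(FPKM + 0.1) minus the mean of the 3 control libraries of that gene, in red above and blue below it, with rows ordered by the *gro-RNAi* difference. The *Notch-RNAi* columns are blue throughout because the genes were chosen so, whereas the *gro-RNAi* columns run from deep blue in the upper rows to white and light red in the lower rows.

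The *gro-RNAi* libraries took no part in choosing these genes, and they divided them. Every *gro-RNAi* library lay below every control library for 22 of the 47 genes, against 4.9% of all tested genes and 7.18% of the CG genes with a control mean of at least 1 FPKM. For 23 genes the 2 groups overlapped in the values as deposited. With centred libraries 33 genes were lower in every *gro-RNAi* library and with quantile normalization 32, so this division depends on the scaling. For 2 genes, *CG7568* and *CG30089*, every *gro-RNAi* library lay above every control library, against 21.5% of all tested genes and 22.7% of those CG genes, and with centred or quantile-normalized libraries no gene did. Against the *Notch-RNAi* libraries, every *gro-RNAi* library was higher for 29 genes (10.9% of all tested genes), the groups overlapped for 17, and *CG15209* alone was lower in every *gro-RNAi* library. The rule favors genes with high control values, and those same control libraries enter the comparison with *gro-RNAi*. The counts against control, and the calls and the median that follow, are therefore favored by the choice and are no independent result. The rule also demanded low *Notch-RNAi* values, so the counts against the *Notch-RNAi* libraries are favored by the choice too, and nothing is read from them.

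In the test across all genes, 12 of the 47 fell in *gro-RNAi* (limma on log2(FPKM + 0.1), adjusted p under 0.05 over 11493 genes), against 1.23% of all tested genes and 2.05% of the CG genes with a control mean of at least 1 FPKM. 3 of the 12, *CG13947*, *CG12310* and *CG30371*, averaged under 0.1 FPKM over the RNAi libraries and so passed the filter through control alone, and 9 are left without them. None rose, also at an unadjusted p under 0.05 and in each alternative fit, while 6.26% of all tested genes and 5.66% of those CG genes did. The median log2 difference of the 47 was -0.73, against 0.27 over all tested genes, and with the libraries centred it was -1.09 against -0.098. Relative to all genes the scaling matters. As deposited, 720 genes were higher and 141 lower in *gro-RNAi*, and after centring 212 and 309, with 16 of the 47 then lower. The number of lower members fell to 3 with only the 6 libraries compared (*CG15209*, *CG17475* and *CG9029*), to 6 without *gro-RNAi* library 2 or without control library 3, and to 7 without control library 2. Conversely, 9 further members were called lower in 1 or more alternatives or with a library left out, and these are given with each gene.

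**Figure D2:**
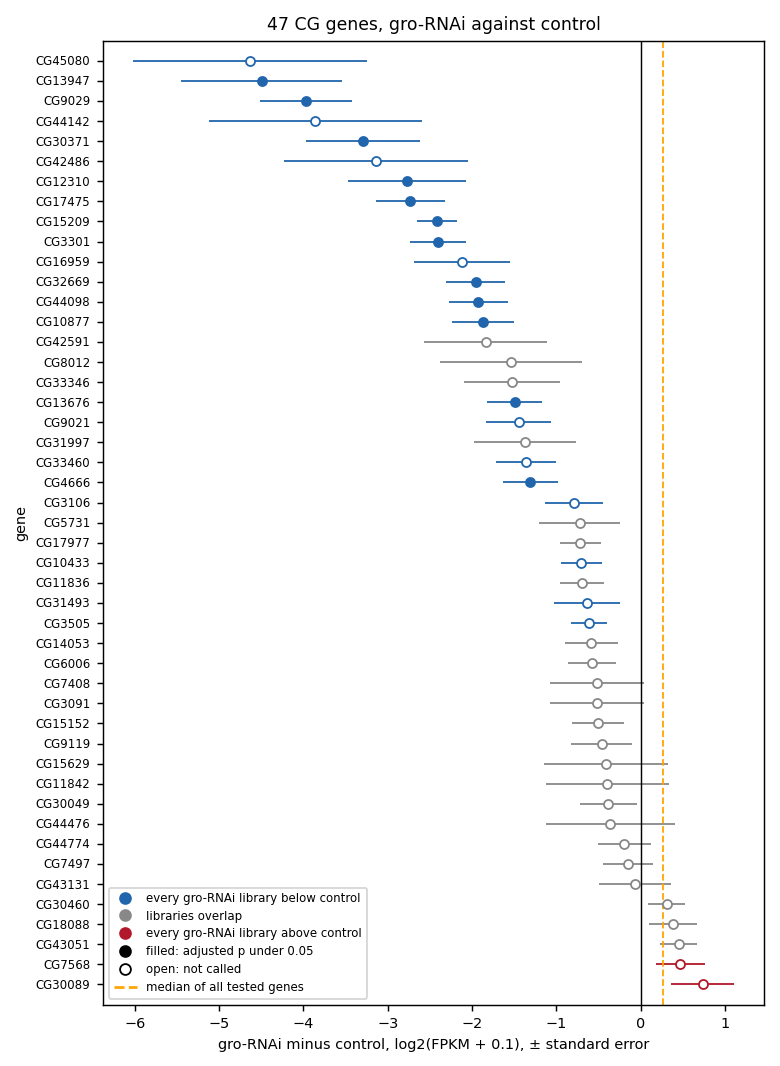
Difference between *gro-RNAi* and control on the log2(FPKM + 0.1) scale with its standard error for each of the 47 genes, from the fit over all 9 libraries. Filled points are the 12 genes with an adjusted p under 0.05, all of them left of 0, and the colors give the 22 genes with every *gro-RNAi* library below control, the 23 that overlap and the 2 above. The dashed line is the median of all tested genes, at 0.27.

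The likely protein classes were taken from synonyms in the RefSeq gene table and from general knowledge, and 18 of the 47 genes received one. Serine proteases and their inactive homologues formed the largest group. Such enzymes are made as precursors, cut other proteins at an active serine, and serve digestion, clotting and immune cascades in flies. The homologues keep the fold but lack the catalytic residues. RefSeq lists the synonym SP23 for *CG11836*, SP68 for *CG11842*, SPH9 for *CG3505*, SPH41 for *CG33460*, SP131 for *CG17475* and SP80 for *CG30371*. These 6 genes make 12.8% of the members, and 39 of the 2441 other CG genes with a control mean of at least 1 FPKM (1.60%) carry such a synonym. Positions below are those of the BDGP6 build.

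*CG17475* (FBgn0038481, chromosome 3R positions 17129339 to 17130426 on the minus strand) had 1.82, 1.45 and 3.06 FPKM in control libraries 1, 2 and 3, 0.167, 0.279 and 0.214 in *gro-RNAi* libraries 1, 2 and 3 and 0.242, 0.329 and 0.567 in *Notch-RNAi* libraries 1, 2 and 3. Every control library was above every RNAi library, and *gro-RNAi* and *Notch-RNAi* overlapped. It fell by 2.74 on the log2 scale in *gro-RNAi* (limma adjusted p = 0.00650, standard error 0.41), a call that no alternative that tested it and no left-out library ended. These levels rest on few reads, about 21.8, 19.5 and 38.3 in the control libraries and at most 2.5 in a *gro-RNAi* library. *CG30371* (FBgn0050371, chromosome 2R positions 8267643 to 8269334 on the minus strand) had 0.723, 1.71 and 3.89 FPKM in control, 0, 0.234 and 0.0896 in *gro-RNAi* and 0.101, 0.110 and 0 in *Notch-RNAi*. It too was low in each RNAi library, at an estimated 2.2 reads or fewer, with control values that spread 5.38-fold. Its log2 difference in *gro-RNAi* was -3.29 (limma adjusted p = 0.0238, standard error 0.68), but it was no longer called without control library 2 or 3, without *gro-RNAi* library 1 or 3, and in 2 of 7 alternative settings (adjusted p up to 0.092).

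*CG11842* (FBgn0039629, chromosome 3R positions 29052680 to 29053913 on the plus strand) differed from these, with 18.8, 14.1 and 14.6 FPKM in control, 9.67, 14.3 and 12.2 in *gro-RNAi* and 0.0585, 0.127 and 1.53 in *Notch-RNAi*. It kept most of its RNA in *gro-RNAi*, and *Notch-RNAi* libraries 1 and 2 held an estimated 1.1 and 2.3 reads where library 3 held 32.1. Its *gro-RNAi* libraries overlapped control, with a log2 difference of -0.40 (limma adjusted p = 0.777, standard error 0.73). *CG11836* (FBgn0039272, chromosome 3R positions 25071126 to 25072712 on the plus strand) had 13.0, 24.0 and 22.8 FPKM in control, 9.82, 14.3 and 11.8 in *gro-RNAi* and 4.17, 4.14 and 3.91 in *Notch-RNAi*, so that *gro-RNAi* overlapped control and exceeded *Notch-RNAi* in each library. Without control library 1 it was called (limma adjusted p = 0.0329, up to 0.323 in the others). *CG3505* and *CG33460* were lower in every *gro-RNAi* library than in control without passing the test. Their means were 8.18 ± 1.17 FPKM in control, 5.28 ± 0.234 in *gro-RNAi* and 2.32 ± 0.331 in *Notch-RNAi* for *CG3505* (SD, n = 3 libraries each), and 3.34 ± 0.566 FPKM in control, 1.27 ± 0.422 in *gro-RNAi* and 0.902 ± 0.341 in *Notch-RNAi* for *CG33460*, with limma adjusted p = 0.109 and 0.0508 in *gro-RNAi*. With the libraries centred both were called (limma adjusted p = 0.0433 and 0.0459), and *CG33460* also with a pseudocount of 1 (0.0335), against up to 0.262 and 0.147 in the others. Of the 6 genes, 4 were thus lower in every *gro-RNAi* library and 2 of these were called, against 22 and 12 of all 47 members. With so few genes this is not read as a trait of the class.

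Another 5 genes are likely to encode enzymes of other kinds. *CG3301* (FBgn0038878, chromosome 3R positions 21274243 to 21276249 on the minus strand) carries the RefSeq synonym FOHSDR and belongs to the short-chain dehydrogenases, which oxidize or reduce alcohols and ketones with a nicotinamide cofactor. It had 51.7, 32.4 and 49.4 FPKM in control libraries 1, 2 and 3, 5.08, 8.09 and 13.1 in *gro-RNAi* libraries 1, 2 and 3 and 2.75, 2.89 and 2.82 in *Notch-RNAi* libraries 1, 2 and 3. Each group stood apart from the others, with *gro-RNAi* between control and *Notch-RNAi*. In *gro-RNAi* it fell by 2.40 on the log2 scale (limma adjusted p = 0.00484, standard error 0.33), and the adjusted p passed 0.05 only with the 6 libraries compared (0.0543, range over the alternatives from 0.0032).

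*CG3106* (FBgn0030148, chromosome X positions 9659095 to 9662903 on the minus strand), which overlaps *Ptpmeg2* on the same strand, belongs to a family of membrane acyltransferases. Its values were 9.29, 5.59 and 5.45 FPKM in control, 5.08, 4.07 and 2.52 in *gro-RNAi* and 0.492, 0.725 and 0.736 in *Notch-RNAi*. The *gro-RNAi* libraries were all below control and all above *Notch-RNAi*, and the gene did not pass the test (log2 difference -0.79, limma adjusted p = 0.188, standard error 0.34). *CG33346*, which resembles secreted nucleases that cut DNA and RNA, had 6.65, 4.38 and 6.90 FPKM in control, 5.07, 1.25 and 1.16 in *gro-RNAi* and 0.240, 0.326 and 0.730 in *Notch-RNAi*. Here *gro-RNAi* library 1 stood among the control libraries, at 5.07 FPKM, and the other 2 did not. Without that library the gene was called (limma adjusted p = 0.0304, up to 0.318 in the others). *CG7408*, a sulfatase by its family, and *CG5731*, of the alpha-galactosidase family of lysosomal enzymes, were low throughout. Their means were 1.86 ± 1.48 FPKM in control, 1.12 ± 0.491 in *gro-RNAi* and 0.198 ± 0.0576 in *Notch-RNAi* for *CG7408* and 1.55 ± 0.912 FPKM in control, 0.863 ± 0.403 in *gro-RNAi* and 0.362 ± 0.133 in *Notch-RNAi* for *CG5731* (SD, n = 3 libraries each), and in each the *gro-RNAi* libraries overlapped control and exceeded *Notch-RNAi*.

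Membrane transport and lipid carriage were represented by 3 genes. *CG6006* (FBgn0063649, chromosome 3R positions 16154982 to 16171766 on the plus strand), of the major facilitator family of membrane transporters, had 115, 60.1 and 65.3 FPKM in control libraries 1, 2 and 3, 49.3, 62.3 and 43.8 in *gro-RNAi* libraries 1, 2 and 3 and 9.05, 11.7 and 15.3 in *Notch-RNAi* libraries 1, 2 and 3. It kept 64.8% of its control mean in *gro-RNAi* and 15.0% in *Notch-RNAi*, and *gro-RNAi* library 2 was just inside the control range (log2 difference -0.58, limma adjusted p = 0.248, standard error 0.29). *CG32669* (FBgn0052669, chromosome X positions 10842697 to 10845081 on the minus strand), with the RefSeq synonym dSLC5A4, belongs to the sodium-coupled solute symporters. It had 1.71, 1.57 and 1.50 FPKM in control, 0.224, 0.289 and 0.549 in *gro-RNAi* and 0.444, 0.361 and 0.336 in *Notch-RNAi*. It fell by 1.96 on the log2 scale in *gro-RNAi* (limma adjusted p = 0.0145, standard error 0.35), into the range of *Notch-RNAi*, and lost its call without *gro-RNAi* library 2 (adjusted p = 0.0526) and with only the 6 libraries compared (0.0578, lowest over the alternatives 0.00577). *CG3091*, of the CRAL-TRIO family of proteins that carry small lipids, had 10.3, 12.1 and 15.6 FPKM in control, 20.6, 6.69 and 4.74 in *gro-RNAi* and 3.26, 3.61 and 1.23 in *Notch-RNAi*. Its *gro-RNAi* libraries spread from below to above the control range.

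*CG13676* (FBgn0035844, chromosome 3L positions 8141868 to 8151813 on the minus strand), likely a chitin-binding protein of the kind found in the matrix that lines the gut, had 1.80, 1.41 and 1.33 FPKM in control, 0.463, 0.346 and 0.627 in *gro-RNAi* and 0.625, 0.467 and 0.613 in *Notch-RNAi*. It fell in *gro-RNAi* by 1.50 on the log2 scale (limma adjusted p = 0.0279, standard error 0.32) into the range of *Notch-RNAi*. The call was lost without any of the control libraries, without *gro-RNAi* library 2, with only the 6 libraries compared and with a replicate block (adjusted p up to 0.0846). *CG7568* (FBgn0039673, chromosome 3R positions 29598670 to 29600862 on the minus strand), whose product is made of WD40 repeats, a fold that binds other proteins, had 17.2, 21.2 and 17.9 FPKM in control, 27.0, 22.1 and 29.0 in *gro-RNAi* and 3.42, 3.39 and 7.24 in *Notch-RNAi*. The lowest *gro-RNAi* library was just above the highest control library, and the gene was not called (log2 difference 0.47, limma adjusted p = 0.361, standard error 0.29).

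At 2 of the genes the RNA also holds a small RNA. *CG43051* (FBgn0262353, chromosome 2L positions 12507939 to 12508504 on the plus strand) is annotated with a reading frame of 27 codons, contains snoRNA:CG43051-a on its own strand and lies within *bun* on the other strand. It had 583, 375 and 374 FPKM in control libraries 1, 2 and 3, 688, 604 and 499 in *gro-RNAi* libraries 1, 2 and 3 and 167, 127 and 178 in *Notch-RNAi* libraries 1, 2 and 3. *gro-RNAi* library 3 lay within the control range and the other 2 above it, whereas *Notch-RNAi* held 35.4% of the control mean. *CG44774* (FBgn0266000, chromosome X positions 4926664 to 4938105 on the minus strand), with *CG4068* among its RefSeq synonyms, overlaps the hairpin RNA gene hpRNA:CR46342, and hairpin RNAs are processed to small interfering RNAs in flies. Its values were 73.6, 89.4 and 105 FPKM in control, 131, 49.6 and 70.1 in *gro-RNAi* and 27.4, 28.0 and 32.7 in *Notch-RNAi*. The *gro-RNAi* libraries spread on both sides of the control range. FPKM of these loci do not tell the long transcript from the small RNA or its precursor.

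**Figure D3:**
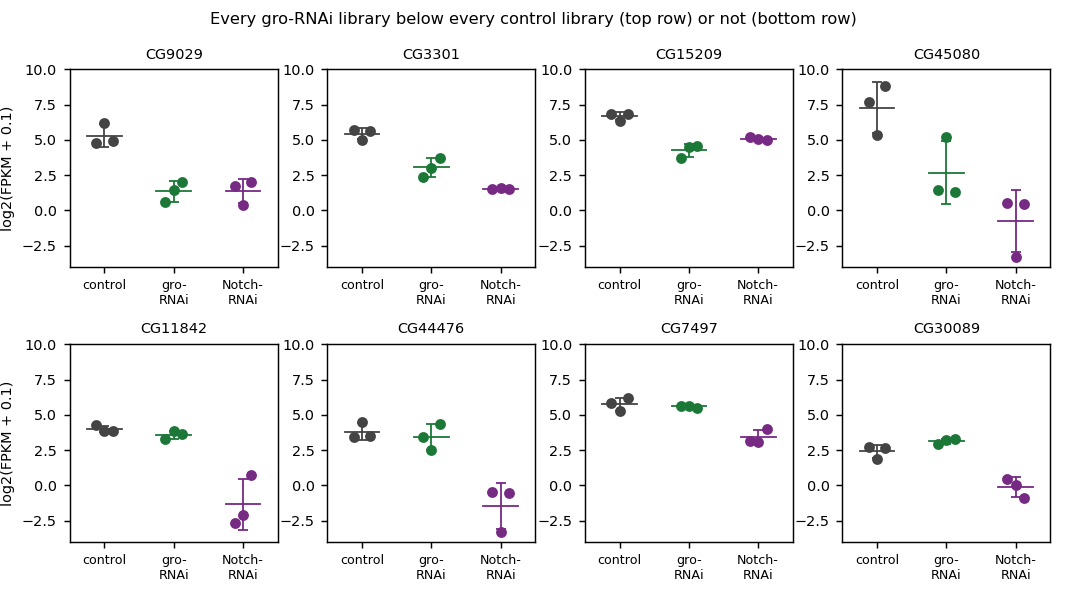
log2(FPKM + 0.1) of 8 genes in each library (points, replicates 1 to 3 from left to right), with the mean (line) and SD (bar) of the 3 libraries of each group. In the top row (*CG9029*, *CG3301*, *CG15209* and *CG45080*) every *gro-RNAi* library lies below every control library, and in the bottom row (*CG11842*, *CG44476*, *CG7497* and *CG30089*) *gro-RNAi* overlaps or exceeds control while *Notch-RNAi* is low.

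Short proteins were frequent. 15 of the 47 genes (31.9%) encode no protein of 150 amino acids or more, against 14.6% of the other CG genes with a control mean of at least 1 FPKM. Besides *CG43051*, 14 of these have no class here, and nothing further is stated of what they do. Of the 15, 8 were lower in every *gro-RNAi* library than in control and 4 were called (*CG9029*, *CG15209*, *CG13947* and *CG12310*). Over all 47 genes these counts were 22 and 12, so the short proteins did not stand apart in this. Genes with 1 exon were also frequent, 12 of 47 (25.5%) against 12.2%, while the median protein length was 316 against 345 amino acids. All 47 genes are annotated as protein coding. The chromosome arms were represented much as among the other CG genes, with 29.8% of the members on 3R against 25.8%, and 21.3% on 2L against 17.2%. The shares are given without a test.

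**Figure D4:**
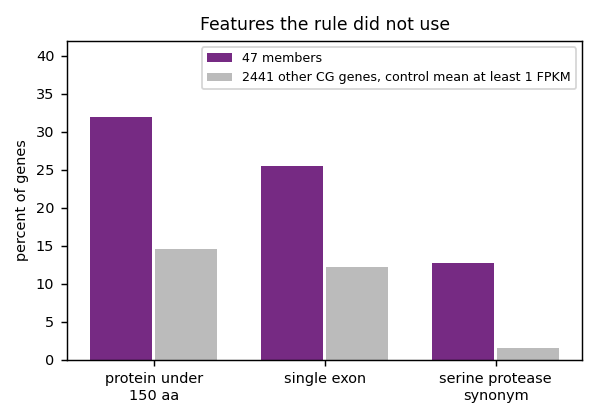
Percent of the 47 genes (purple) and of the 2441 other CG genes with a control mean of at least 1 FPKM (gray) that encode a protein under 150 amino acids, have 1 exon in every transcript, or carry a serine protease synonym in RefSeq. The purple bars stand at 31.9%, 25.5% and 12.8%, and the gray bars at 14.6%, 12.2% and 1.60%.

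*CG9029* (FBgn0031746, chromosome 2L positions 5886002 to 5886609 on the plus strand, 122 amino acids) and *CG9021* (FBgn0031747, chromosome 2L positions 5903178 to 5904689 on the minus strand, 316 amino acids) lie 16568 bases apart. *CG9021* was the most abundant of the 47 genes, with 583, 709.7 and 311 FPKM in control libraries 1, 2 and 3, 108, 260.1 and 226 in *gro-RNAi* libraries 1, 2 and 3 and 49.6, 51.0 and 35.4 in *Notch-RNAi* libraries 1, 2 and 3. In it *gro-RNAi* was intermediate, at 37.1% of the control mean against 8.48% in *Notch-RNAi*, with no overlap between groups, and it did not pass the test (log2 difference -1.45, limma adjusted p = 0.0543, standard error 0.38). It was called with a filter at 1 FPKM and without control library 3 (limma adjusted p = 0.0446 and 0.0481, up to 0.167 in the others). *CG9029* had 26.7, 74.9 and 30.7 FPKM in control, 1.40, 2.57 and 3.93 in *gro-RNAi* and 3.18, 1.21 and 3.87 in *Notch-RNAi*. It fell by 3.97 on the log2 scale in *gro-RNAi* (limma adjusted p = 0.00484, standard error 0.55), and no alternative or left-out library ended the call. Its mean was 5.97% of control in *gro-RNAi* and 6.24% in *Notch-RNAi*. Between these 2 genes lie *Acp26Aa* and *Acp26Ab*, which encode seminal fluid proteins, and 3 long non-coding RNAs, none above 2.75 FPKM in any library.

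*CG45080* and *CG44142* are neighbors on chromosome 3R with 5802 bases between them. *CG45080* (FBgn0266455, chromosome 3R positions 13318991 to 13319270 on the minus strand, 55 amino acids) had 209.6, 39.8 and 452 FPKM in control, 2.56, 37.4 and 2.38 in *gro-RNAi* and 1.35, 0 and 1.26 in *Notch-RNAi*. Control library 2 was 11.3-fold below control library 3 and only just above *gro-RNAi* library 2. *CG44142* (FBgn0264991, chromosome 3R positions 13312855 to 13313188 on the minus strand, 83 amino acids) had 11.2, 4.10 and 21.1 FPKM in control, 0, 3.85 and 0.737 in *gro-RNAi* and 0, 0.454 and 0 in *Notch-RNAi*, again lowest of the controls in library 2 and highest of the *gro-RNAi* libraries in library 2. The log2 differences in *gro-RNAi* were -4.63 and -3.86, and with this spread neither passed (limma adjusted p = 0.0760 and 0.0999). With a pseudocount of 1 *CG45080* was called (limma adjusted p = 0.0462, up to 0.217 in the others).

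*CG15152* and *CG44476*, for the latter of which a RefSeq synonym names a long intergenic non-coding RNA, lie 1367 bases apart on chromosome 2L and point away from each other. *CG15152* (FBgn0032665, chromosome 2L positions 18114547 to 18115220 on the plus strand, 112 amino acids) had 153, 213 and 124 FPKM in control, 120.3, 91.8 and 126 in *gro-RNAi* and 28.2, 33.6 and 15.3 in *Notch-RNAi*. *CG44476* (FBgn0265669, chromosome 2L positions 18112830 to 18113179 on the minus strand, 77 amino acids) had 10.6, 22.3 and 11.2 FPKM in control, 10.8, 5.63 and 20.4 in *gro-RNAi* and 0.609, 0 and 0.571 in *Notch-RNAi*. Here *gro-RNAi* overlapped control and stood above *Notch-RNAi* in every library of both genes, at 69.0% and 83.5% of the control means. The log2 difference of *CG44476* turned from -0.36 to 0.099 without *gro-RNAi* library 2.

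*CG15209* (FBgn0030237, chromosome X positions 10842205 to 10842995 on the plus strand, 147 amino acids) overlaps the symporter gene *CG32669* by 299 bases on opposite strands within *sbr*, and without strand information reads there cannot be told apart. It had 115, 80.1 and 114 FPKM in control libraries 1, 2 and 3, 13.2, 21.9 and 23.6 in *gro-RNAi* libraries 1, 2 and 3 and 36.1, 33.9 and 31.9 in *Notch-RNAi* libraries 1, 2 and 3. The 3 groups did not overlap, and *gro-RNAi*, at 19.0% of the control mean, was below *Notch-RNAi*, at 33.0%. It fell by 2.42 on the log2 scale in *gro-RNAi* (limma adjusted p = 0.00192, standard error 0.24), a call that held in all 8 alternatives and without each library in turn. In each of the 4 neighboring pairs, the 2 genes thus fell on the same side of the division by *gro-RNAi* as deposited. They were lower in every library for 3 pairs and overlapped control for the other, a description of 4 pairs and no test. With the libraries centred, *CG15152* was lower in every *gro-RNAi* library and *CG44476* still overlapped control, so that pair then no longer matched.

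Of the remaining short proteins, *CG13947* (FBgn0031277, chromosome 2L positions 779173 to 779655 on the plus strand, 119 amino acids) was listed at 0 in every *gro-RNAi* and every *Notch-RNAi* library and had 8.28, 0.272 and 3.56 FPKM in control. Control library 2 held an estimated 1.6 reads of it, so the gene rests on the other 2 control libraries. Having passed the filter through control alone, it was counted as lower (log2 difference -4.49, limma adjusted p = 0.0265, standard error 0.95), and leaving out any library but control 2 ended the call (adjusted p up to 0.0935, and 0.00309 without control library 2), as did 3 of 8 alternatives. With RNAi values of 0 the size of this difference depends on the pseudocount, at -1.92 with 1 and -7.66 with 0.01, and gives no fold. *CG12310* (FBgn0036467, chromosome 3L positions 15050263 to 15050806 on the minus strand, 114 amino acids), within *Sytbeta* on the same strand, had 0.753, 1.34 and 1.22 FPKM in control, 0.400, 0 and 0 in *gro-RNAi* and 0, 0 and 0.148 in *Notch-RNAi*. It fell as well (log2 difference -2.78, limma adjusted p = 0.0451, standard error 0.70), on an estimated 9.0 reads or fewer in each library, and leaving out any library but *gro-RNAi* 1 ended the call (adjusted p up to 0.133), as did 4 of 7 alternatives.

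*CG42486*, which overlaps *CG14933* and *CG46426* on its strand, had 18.0, 30.3 and 13.7 FPKM in control, 3.23, 3.73 and 0.765 in *gro-RNAi* and 1.18e-41, 0.942 and 2.73 in *Notch-RNAi*, where the value of *Notch-RNAi* library 1 is in effect 0. It was lower in every *gro-RNAi* library and not called (log2 difference -3.14, limma adjusted p = 0.116, standard error 1.09), except with a pseudocount of 1 (0.025, up to 0.288 in the others). *CG10433* (127 amino acids) had 104, 111 and 160.1 FPKM in control, 73.0, 84.9 and 68.5 in *gro-RNAi* and 19.7, 20.05 and 32.4 in *Notch-RNAi*. Its *gro-RNAi* libraries stood between those of control and *Notch-RNAi*, and it was not called (log2 difference -0.71, limma adjusted p = 0.109, standard error 0.24). *CG17977* had 53.0, 40.4 and 46.7 FPKM in control, 42.3, 21.7 and 24.3 in *gro-RNAi* and 16.0, 17.6 and 17.6 in *Notch-RNAi*, with *gro-RNAi* library 1 inside the control range. It was called with the libraries centred or quantile-normalized and without *gro-RNAi* library 1 (limma adjusted p = 0.0183, 0.0296 and 0.0163, against 0.112 in the fit as deposited and up to 0.276 in the others). *CG31997* and *CG43131* overlapped control in *gro-RNAi*, with means of 7.17 ± 2.79 FPKM in control, 3.38 ± 2.77 in *gro-RNAi* and 0.889 ± 0.116 in *Notch-RNAi* and of 2.36 ± 1.43 FPKM in control, 2.07 ± 0.634 in *gro-RNAi* and 0.221 ± 0.0166 in *Notch-RNAi* (SD, n = 3 libraries each). *CG43131* held an estimated 6.9, 22.4 and 8.7 reads in control and 1.7 in each *Notch-RNAi* library, too few for that SD to describe a spread. *CG8012* had 1.71, 1.16 and 1.02 FPKM in control, 0, 1.15 and 0.731 in *gro-RNAi* and 0.166, 0.457 and 0.197 in *Notch-RNAi*, too few reads (16.0 or fewer in each library) for its libraries to be ordered.

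Among the 15 longer proteins without a class, *CG9021* is given above. *CG44098* (FBgn0264907, chromosome 3R positions 4750409 to 4773197 on the minus strand, 813 amino acids) had 38.2, 26.4 and 27.5 FPKM in control libraries 1, 2 and 3, 4.44, 12.9 and 8.48 in *gro-RNAi* libraries 1, 2 and 3 and 3.49, 3.34 and 4.12 in *Notch-RNAi* libraries 1, 2 and 3. It fell by 1.93 on the log2 scale in *gro-RNAi* (limma adjusted p = 0.0146, standard error 0.35), to a level above *Notch-RNAi*, and lost its call without control library 3 (adjusted p = 0.0505) and with only the 6 libraries compared (0.0866, lowest over the alternatives 0.0109). *CG10877* (FBgn0038804, chromosome 3R positions 20562486 to 20564067 on the minus strand) had 12.5, 12.2 and 10.3 FPKM in control, 1.76, 3.49 and 4.79 in *gro-RNAi* and 2.67, 1.90 and 3.48 in *Notch-RNAi*. It fell by 1.88 on the log2 scale (limma adjusted p = 0.0196, standard error 0.37), with *gro-RNAi* and *Notch-RNAi* alike in range, but not without control library 2 or 3 or *gro-RNAi* library 2 (adjusted p up to 0.0607), nor with only the 6 libraries compared (0.0805). *CG4666* (FBgn0029838, chromosome X positions 6076072 to 6077786 on the minus strand) had 8.54, 14.6 and 12.3 FPKM in control, 2.99, 5.88 and 5.44 in *gro-RNAi* and 2.01, 2.64 and 3.16 in *Notch-RNAi*. It fell by 1.31 on the log2 scale (limma adjusted p = 0.0435, standard error 0.33), and leaving out any library but control 1 ended the call (adjusted p up to 0.124), as did 3 of 8 alternatives.

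*CG16959* and *CG31493* were also below control in every *gro-RNAi* library. *CG16959* had 6.06, 3.52 and 8.33 FPKM in control, 0.451, 1.86 and 2.01 in *gro-RNAi* and 0.887, 0.891 and 0.406 in *Notch-RNAi*, and was called in 3 of 8 alternatives, centring among them (limma adjusted p = 0.0371 to 0.049, against 0.0555 as deposited and up to 0.165 in the others). *CG31493* had 1.06, 1.47 and 1.95 FPKM in control, 0.660, 1.03 and 1.05 in *gro-RNAi* and 0.523, 0.406 and 0.210 in *Notch-RNAi*, with the highest *gro-RNAi* library only just under the lowest control library. Its log2 difference was -0.64 (limma adjusted p = 0.352, standard error 0.39), on an estimated 11.8 to 22.5 reads in control and 7.9 to 10.5 in *gro-RNAi*.

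The other genes of this group overlapped control in *gro-RNAi*, except *CG30089*. *CG7497* (FBgn0036742, chromosome 3L positions 17633449 to 17638001 on the plus strand, 412 amino acids) had 56.1, 37.5 and 72.0 FPKM in control libraries 1, 2 and 3, 49.4, 49.6 and 45.2 in *gro-RNAi* libraries 1, 2 and 3 and 8.71, 8.47 and 15.8 in *Notch-RNAi* libraries 1, 2 and 3. The *gro-RNAi* libraries were close together and lay inside the control range, and every *Notch-RNAi* library lay below. *CG30460* (FBgn0050460, chromosome 2R positions 17065971 to 17087633 on the minus strand), the longest protein of the 47 at 1868 amino acids, had 30.2, 21.8 and 18.4 FPKM in control, 29.2, 30.4 and 26.0 in *gro-RNAi* and 5.80, 6.98 and 8.19 in *Notch-RNAi*. *CG30089* (FBgn0050089, chromosome 2R positions 15727381 to 15762044 on the plus strand, 1263 amino acids) had 6.39, 3.53 and 6.10 FPKM in control, 7.49, 9.03 and 9.55 in *gro-RNAi* and 1.26, 0.930 and 0.435 in *Notch-RNAi*. In *CG30089* *gro-RNAi* was 163% of the control mean, the highest share among the 47 genes, with a log2 difference of 0.73 (limma adjusted p = 0.267, standard error 0.38), and with the libraries centred it was 0.37 and the groups overlapped. *CG18088* had 3.37 ± 0.896 FPKM in control, 4.43 ± 1.22 in *gro-RNAi* and 0.918 ± 0.0171 in *Notch-RNAi* (SD, n = 3 libraries each), and its *gro-RNAi* libraries overlapped control.

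*CG9119*, *CG14053* and *CG30049* overlapped control in *gro-RNAi* and exceeded *Notch-RNAi* in every library, with *gro-RNAi* means at 77.5%, 67.2% and 74.7% of control and *Notch-RNAi* means at 25.1%, 12.9% and 18.6%. *CG15629* had 4.87, 8.78 and 5.30 FPKM in control, 1.11, 9.62 and 8.47 in *gro-RNAi* and 2.10, 1.85 and 0.859 in *Notch-RNAi*. Its *gro-RNAi* library 1 was low and the other 2 were inside or above the control range, so that its log2 difference turned from -0.42 to 0.56 without library 1. *CG42591*, within *Sarm* on the other strand, had 1.97, 0.997 and 0.544 FPKM in control, 0.671, 0 and 0.313 in *gro-RNAi* and 0.177, 0.193 and 0.166 in *Notch-RNAi*, an estimated 11.0 reads or fewer in each library. Its *gro-RNAi* mean was 28.1% of the control mean, with a log2 difference of -1.84 (limma adjusted p = 0.158, standard error 0.73).

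Across the 22 genes below control in every *gro-RNAi* library, the *gro-RNAi* mean ran from 0% to 64.5% of control with a median of 23.2%, and the *Notch-RNAi* mean had a median of 12.05%. Across the 23 genes that overlapped, the median was 74.7% in *gro-RNAi* and 19.9% in *Notch-RNAi*. Among the 22, 9 were highest of the *gro-RNAi* libraries in library 2, 9 in library 3 and 3 in library 1, the library with the lowest *gro* value, and *CG13947* was at 0 in all of them. Over all 47 genes the counts were 17 in library 2, 14 in library 3 and 15 in library 1, and a relation to the *gro* level was not tested. The 47 genes were highest in control library 1 in 19 cases, in library 2 in 12 and in library 3 in 16. 22 of the 47 genes overlap another annotated gene, 6 of them on the same strand and 19 on the other, and their FPKM may include reads of that gene.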

How the data were processed

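Sorted Dl > GFP+ midgut cells were profiled in 9 libraries, 3 per group, and groups and replicates were read from the sample titles. The authors deposited FPKM for 17481 genes, and 17176 of them matched a symbol in the gene name table (305 did not). The submitters' processing notes name STAR 2.5.2b and the build BDGP6. The tool that gave the FPKM, its annotation, its strand setting and any further scaling are not given in the sources used here. Positions, exons and coding lengths came from Ensembl release 115 for BDGP6, which need not be the authors' annotation, and synonyms from RefSeq, where 47 of the 47 members matched.

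The 11493 genes whose 9 values averaged 0.1 FPKM or more were compared on log2(FPKM + 0.1) with limma 3.58.1 in R 4.3.3 (lmFit, eBayes with trend, no replicate block). Adjustment of p-values was by Benjamini-Hochberg over those genes. A log2 difference on this scale understates the change of low genes. All 47 members passed this filter because the rule demands a control mean of at least 1 FPKM. The fit was tested on simulated data, where the share of false calls exceeded the nominal 0.05. The simulation gave every gene the same extra spread and held no overall shift between groups. The real libraries differ in both, so the share of false calls among the members is not known. With 3 libraries against 3, an exact permutation test of 1 gene cannot give a two-sided p below 0.1, so none is given. By the study's methods each replicate of control and *gro-RNAi* was a separate pool of dissected midguts. Those methods do not describe the *Notch-RNAi* libraries, and whether they were collected alongside the others is not known. The p-values measure the spread between libraries.

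FPKM hold no read totals. Depth was estimated from the steps of values under 0.3 FPKM in genes with 1 transcript of at least 2500 nt. Reads of a gene were taken as FPKM × transcript length × depth, which overstates short transcripts. These estimates cover counting error only, since amplified reads are not independent molecules.

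The members and lists were chosen with earlier results of these data known. Named in full were the members with the 12 highest control means, the 8 lowest ratios of highest *Notch-RNAi* to lowest control value, the 6 largest falls and rises in *gro-RNAi* among those not overlapping control, those nearest to a limit of the rule and those with another member within 20 kb. The remaining members were named, after their values were seen, to account for all 47. The alternatives tried were pseudocounts of 1 and 0.01, no filter or one at 1 FPKM, centring, quantile normalization, only the 6 libraries compared, a replicate block, and each library left out. Promoter motifs and protein sequence matches were planned and not run. Python 3.11.15 with pandas 2.3.3, numpy 2.4.6 and matplotlib 3.10.9 served the other steps.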

Additional observations from a re-analysis of the deposited data

How the results depend on the processing

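The number of genes that pass the rule moved with the processing, from 47 to 122 after centring the libraries on one median and to 24 with a limit of 0.333 of the lowest control value. With 1 library left out it was 57 to 91. Of the comparison with *gro-RNAi*, the number of members called lower moved from 12 to 3 with only the 6 libraries compared and ran from 6 to 11 with 1 library left out. The number with every *gro-RNAi* library below control rose from 22 to 33 with centring and to 32 with quantile normalization. With 1 library left out it ran from 23 to 30. The number with every *gro-RNAi* library above control moved from 2 to 0 with centring and to 0 with quantile normalization, and ran from 2 to 4 with 1 library left out. Leaving out a library can only keep or raise the counts of genes without overlap, so those ranges are no test of them. It also eases the limit of the rule against the lowest control value. The cause of the other moves was not tested. Direction turned for *CG30460*, to -0.058 with centring and -0.0022 with quantile normalization. With 1 library left out the log2 difference ran from -0.58 to 0.12 for *CG44774*, -0.40 to 0.066 for *CG7497*, -0.82 to 0.099 for *CG44476*, -0.95 to 0.56 for *CG15629*, -0.36 to 0.38 for *CG43131* and -0.93 to 0.057 for *CG7408*. None of these genes was called. The replicate numbers do not pair the libraries, since deviations from the group means of libraries with the same number correlated at -0.0463 to 0.0723. The replicate block left 10 of the 12 calls lower. In this balanced design it cannot change a log2 difference, so it says nothing of direction. The planned promoter motif counts and protein sequence matches were not run. Depth limits several genes that rest on few reads, among them *CG13947*, *CG12310*, *CG42591*, *CG8012*, *CG43131*, *CG30371*, *CG17475* and *CG31493*.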
